A study of Mus musculus with 12 samples.

Results

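Heat shock proteins and their partner chaperones were described in mouse blood neutrophils with and without loss of the Y chromosome (LOY), after bone marrow transplantation. The genes were chosen by name, 10 in all: the HSP70 genes Hspa8, Hspa1a, Hspa1b and Hspa5, the HSP90 genes Hsp90aa1, Hsp90ab1 and Hsp90b1, the J-domain genes Dnaja1 and Dnajb1, and Hsph1. Of the 11494 genes in the table, 9 were members, and Hsph1 was not analysed here. There were 6 libraries with the genotype LOY and 6 with the genotype Control, both groups labelled BMT. All 12 carried the same treatment label, Control, and all were sorted from blood as 10000 cells positive for Ly6G and RFP and negative for CD115. Strain, age, the means by which the Y chromosome was lost and the source of RFP are not given in the labels. Nor do they state that each library is 1 mouse, and the p-values below cover no more than library-to-library spread. The recovered reads ranged from 17097739 to 19616066 in LOY libraries and from 13743581 to 18459792 in Control libraries.

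Several library features bear on what follows. Reads of all Y-linked genes in LOY libraries lay between 0.17% and 3.31% of the Control mean in 5 libraries and at 39.2% in LOY 4. Between 6.59% and 11.6% of genes were at 0 in LOY libraries, against 9.33% to 11.1% in Control 6, 17 and 18 and 17.3% to 21.7% in Control 1, 2 and 12, which therefore stand apart. The neutrophil markers with a row, 8 of 10 and none at 0 in any library, summed to 85856 to 116235 CPM (normalized values rescaled to 1 common library total) in LOY libraries and 83221 to 133739 in Control libraries. The markers Mpo and Elane were not analysed here. Erythroid markers, 7 of 7, summed to 5906 to 38011 CPM in LOY libraries and 4283 to 8889 in Control libraries. Markers of B cells, 5 of 5, summed to 106 to 459 CPM in LOY and 227 to 399.7 CPM in Control libraries, and monocyte markers, 4 of 7, to 676 to 1023 CPM in LOY and 502 to 859 CPM in Control libraries. The highest monocyte marker was Csf1r, with a median of 12637 normalized reads in LOY and 9919 in Control libraries. Ly6c2 went the other way, with medians of 1598 and 2317, and F13a1 and Irf8 were at 0 in every Control library. T and NK cell, platelet, and eosinophil and basophil markers each summed to at most 88.2 CPM in every library. The part of these differences in the chaperone values was not tested. In bulk samples fewer cells of a type and less RNA per cell cannot be told apart.

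Chaperones bind unfolded stretches of other proteins and help them fold, travel or be degraded. HSP70 proteins are driven through their ATP cycle by J-domain proteins and pass some clients on to HSP90. In the cytosol the inducible members are switched on by the transcription factor HSF1 through heat shock elements in their promoters. In the endoplasmic reticulum (ER), where secreted and membrane proteins fold, the HSP70 and HSP90 members are switched on together by the unfolded protein response through the ER stress element. Neutrophils store and secrete large amounts of protein that passes through the ER during their development.

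No chaperone gene passed the test between LOY and Control neutrophils. Over all genes 0.0205% passed (limma on log2 of the normalized value plus 1, Benjamini-Hochberg adjusted p under 0.05, 2 of 9742 genes tested), and of the 9 members, all tested, 0 passed. At an unadjusted p under 0.05 there were 3 members, Hspa5 higher and Dnaja1 and Hsp90ab1 lower in LOY, against 6.04% of all genes tested, 4.4% higher and 1.63% lower. With edgeR on the recovered reads the same 3 members had an unadjusted p under 0.05, beside 2.94% of all genes, and 0 members and 0 genes passed after adjustment. With DESeq2 0 members passed, beside 0.484% of genes. The median log2 fold change of the 9 members was −0.26, against 0.14 over all genes tested, and 3 members had a positive and 6 a negative estimate, against 60.9% positive and 39.1% negative over all genes. The median over all genes was 0.15 with limma after TMM scaling, 0.03 after quantile normalization, and −0.0098 with edgeR, which also models counts in place of log2 values. Genes at an unadjusted p under 0.05 split into 429 higher and 159 lower with limma, 451 and 139 after TMM scaling, 375 and 230 after quantile normalization, and 140 and 146 with edgeR. No member had groups that did not overlap, against 0.287% of all genes tested. In the authors' deposited table the same 3 members had an unadjusted p under 0.05, beside 5.53% of its genes. For the 9 members its log2 fold changes and unadjusted p-values equal those of the DESeq2 fit here, so it is no separate test.

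**Figure D1:**
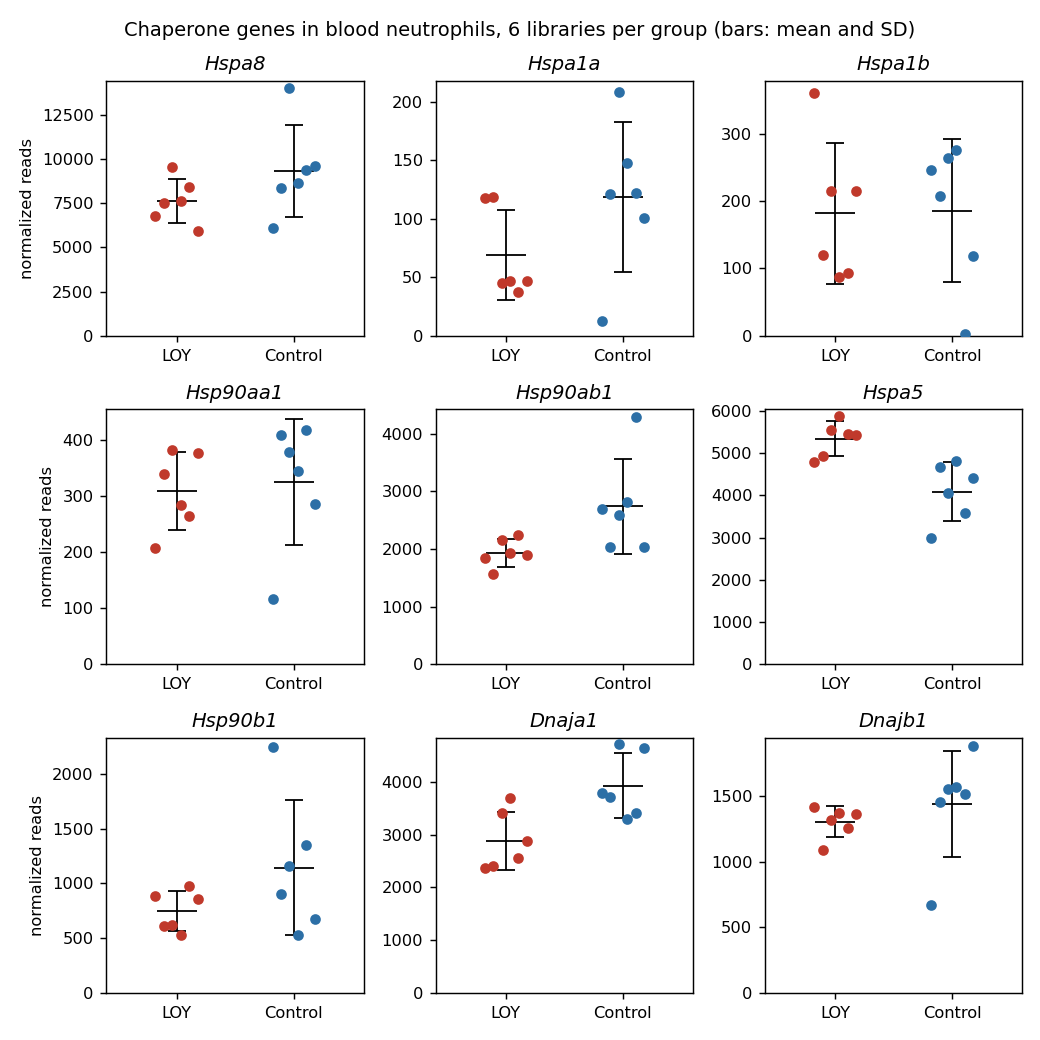
Normalized reads (y axis, from 0) of the 9 chaperone genes in each library, LOY left and Control right; points are the 6 libraries of a group, bars the mean and SD. The LOY points of Hspa5 sit mostly above the Control points and those of Dnaja1 and Hsp90ab1 mostly below, with overlap in each, and Control libraries are the more scattered for Hsp90b1, Dnajb1 and Hsp90ab1.

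Levels were compared between genes as normalized reads per kb of exon. The constitutive cytosolic gene Hspa8 was the most abundant member, at 3188 ± 524 per kb in LOY libraries and 3899 ± 1087 in Control libraries (SD, n = 6 each), above 97.1% of listed genes. Hspa5 followed at 1423 ± 109 and 1089 ± 186, then Hsp90ab1 at 769 ± 95.9 and 1089 ± 327, in LOY and Control libraries. Dnaja1 and Dnajb1 stood at 499.6 ± 95.7 and 407 ± 36.8 in LOY libraries, and at 681 ± 106 and 449.5 ± 127 in Control libraries. Hsp90b1 was at 264 ± 65.2 in LOY and 404 ± 219 in Control libraries. The lowest were Hsp90aa1, at 91.6 ± 20.4 and 96.3 ± 33.5, Hspa1b, at 64.9 ± 37.2 and 66.3 ± 37.8, and Hspa1a, at 23.2 ± 12.9 and 39.99 ± 21.5 in LOY and Control libraries. Hspa8 exceeded Hspa5, Hsp90ab1 exceeded Dnaja1, and Hsp90b1 exceeded Hsp90aa1 in 12 of 12 libraries. The place of Hsp90ab1 above Dnaja1 rests on exon length, all annotated exons of a gene joined, which is 2520 and 5776 bases. In normalized reads the mean of Dnaja1 was the higher, at 2886 against 1938 in LOY and 3932 against 2745 in Control libraries. Control 2 went the other way, at 3419 against 4285. The other neighbours changed places in at least 1 library: Hspa5 exceeded Hsp90ab1 in 6 of 6 LOY and 4 of 6 Control libraries, and Dnajb1 exceeded Hsp90b1 in the same numbers. Hspa1b exceeded Hspa1a in 11 of 12.

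In the ER, Hspa5 encodes BiP, the HSP70 of this compartment. It lies on chromosome 2, from 34771970 to 34777547 (GRCm38, plus strand). In LOY libraries Hspa5 had a lowest value of 4794, a median of 5445 and a highest of 5887 normalized reads, against 2986, 4234 and 4822 in Control libraries. All LOY libraries except LOY 10 lay above every Control library, and LOY 10 lay just below Control 18. This gave a log2 fold change of 0.40 ± 0.12 (SE; limma, unadjusted p = 0.00525, adjusted p = 0.602). With the zero-gene share as covariate it was 0.20 (limma, unadjusted p = 0.145), and without Control 1, 2 and 12 it was 0.27. Without LOY 4, the LOY library with the most Y-linked reads, it was 0.37 (limma, unadjusted p = 0.0134). With all libraries and no covariate the 95% interval runs from 1.10-fold to 1.58-fold higher in LOY. The authors' deposited table gives a log2 fold change of 0.39 with an adjusted p of 0.297. Hspa5 had the smallest p of the members and ranked 82 of 9742 genes. The spread in the LOY group was small, with a coefficient of variation of 7.63%, against 17.1% in the Control group, and counting alone would give 1.41%.

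Hsp90b1 encodes GRP94, the HSP90 of the ER, which folds integrins and Toll-like receptors among other clients. It lies on chromosome 10, from 86690209 to 86705509 (minus strand), where its exons overlap those of 1810014B01Rik, Gm15344 and Gm25745. Gm15344 and Gm25745 lie on its own strand and 1810014B01Rik on the other, which the kit does not mark, so reads from the shared stretches are uncertain. In LOY libraries Hsp90b1 had a lowest value of 532, a median of 739 and a highest of 979 normalized reads, against 527, 1030 and 2241 in Control libraries. The LOY range lay within the Control range, whose highest library was Control 1. LOY over Control was −0.49 ± 0.32 (SE; limma adjusted p = 0.826), with a 95% interval from 0.441-fold to 1.16-fold of Control. The estimate was −0.26 without Control 1, −0.03 without Control 1, 2 and 12, and 0.092 with the zero-gene share of each library as covariate.

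The promoters of both ER genes hold the same element, and are shown because the levels of these genes were inversely related across libraries. Each is the 250 bases upstream of the start (RefSeq, GRCm38.p6), with the ER stress element (CCAAT, any 9 bases, CCACG; either strand) in capitals. The gene positions given above are from GENCODE and reach farther upstream than these RefSeq starts, so part of each stretch lies within them. The element occurs in 0.119% of 32817 promoter windows, which span 250 bases before to 50 after a start. It occurs once in the window of Hspa5 and at 2 places, on opposite strands, in that of Hsp90b1.
Hspa5, chr2:34771840-34772089, plus strand: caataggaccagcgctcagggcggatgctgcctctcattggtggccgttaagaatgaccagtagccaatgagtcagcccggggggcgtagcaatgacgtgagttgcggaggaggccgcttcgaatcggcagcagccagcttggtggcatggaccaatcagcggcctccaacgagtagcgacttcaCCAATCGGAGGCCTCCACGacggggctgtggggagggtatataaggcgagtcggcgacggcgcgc
Hsp90b1, chr10:86705445-86705694, minus strand: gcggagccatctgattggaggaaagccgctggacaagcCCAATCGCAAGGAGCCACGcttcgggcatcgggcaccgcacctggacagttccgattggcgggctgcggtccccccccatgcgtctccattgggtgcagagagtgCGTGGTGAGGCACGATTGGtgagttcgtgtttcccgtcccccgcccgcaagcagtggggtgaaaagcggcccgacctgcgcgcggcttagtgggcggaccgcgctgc

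Across the 12 libraries Hspa5 and Hsp90b1 were inversely related on the log2 scale. Pearson's r was −0.82 (permutation p = 0.00156, adjusted p = 0.0078 over 5 pairs of members), and Spearman's rho was −0.69 (permutation p = 0.0175, adjusted p = 0.0874). Within Control libraries r was −0.94 (exact permutation p = 0.00417, adjusted p = 0.0208), and within LOY libraries −0.36 (exact permutation p = 0.425). The relation rests on Control 1 and 2, the libraries farthest from the median of Hspa5: without them r was −0.43 (permutation p = 0.211). Without Control 1, 2 and 12 it was −0.41 (exact permutation p = 0.277). The ratio of Hspa5 to Hsp90b1 reads ranged from 5.40 to 11.1 in LOY libraries and from 1.33 to 9.15 in Control libraries, so the groups overlapped.

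**Figure D2:**
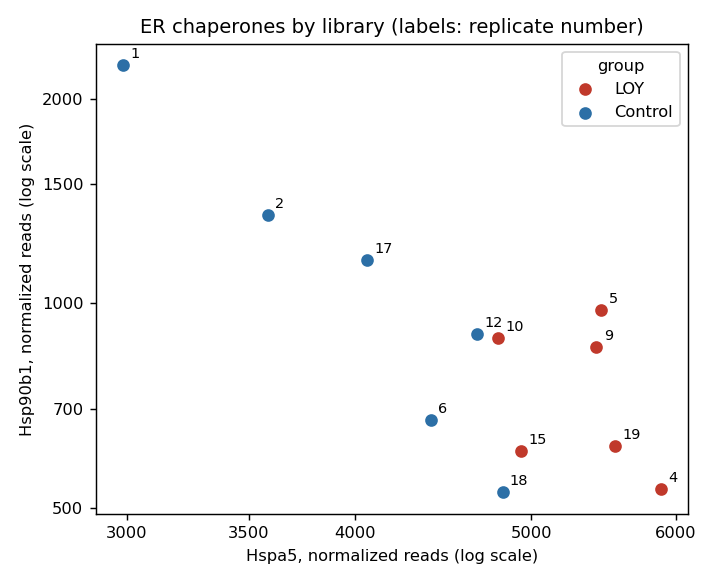
Hspa5 (x axis) and Hsp90b1 (y axis) in normalized reads on log scales, with 1 point per library, LOY and Control in different colours, labelled by replicate number. Control 1 and 2 hold the upper left corner, and without them r was −0.43 in place of −0.82.

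In the cytosol, Dnaja1 encodes a J-domain protein that stimulates the ATPase of Hspa8. It lies on chromosome 4, from 40722150 to 40737149 (plus strand), and its exons overlap those of Smu1 on the other strand and of Mir207. The kit does not mark strand, so reads from the shared stretches are uncertain. In LOY libraries Dnaja1 had a lowest value of 2370, a median of 2714 and a highest of 3695 normalized reads, against 3295, 3757 and 4714 in Control libraries. LOY 5, 9, 10 and 15 lay below every Control library, whereas LOY 4 and 19 lay among them. Dnaja1 had a log2 fold change of −0.45 ± 0.14 (SE; limma, unadjusted p = 0.00737, adjusted p = 0.644), and the 95% interval runs from 0.59-fold to 0.904-fold of Control. The estimate was −0.55 without Control 1, 2 and 12, −0.59 with the zero-gene share as covariate and −0.53 without LOY 4. The authors' deposited table gives −0.45 with an adjusted p of 0.34. Dnajb1, which encodes the J-domain partner induced with HSP70 by heat, is on chromosome 8, from 83608193 to 83612653. It ranged from 1090 to 1418 normalized reads with a median of 1341 in LOY libraries, and from 669.9 to 1883 with a median of 1533 in Control libraries. Only Control 1 lay below the LOY range, and the other 5 Control libraries lay above it. Its log2 fold change was −0.08 ± 0.22 with all libraries (SE; limma adjusted p = 0.944), −0.29 without Control 1 (adjusted p = 0.836) and 0.0084 without Control 6. It was −0.35 without Control 1, 2 and 12 and −0.39 with the zero-gene share as covariate.

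The cytosolic HSP90 genes differed in level and in estimate. Hsp90ab1, the constitutive one, lies on chromosome 17 from 45567775 to 45573271 (minus strand). It had a lowest value of 1560, a median of 1917 and a highest of 2239 normalized reads in LOY libraries, against 2033, 2641 and 4285 in Control libraries. LOY 4, 9, 10 and 15 lay below every Control library, and Control 2 lay far above the others. Hsp90ab1 had a log2 fold change of −0.46 ± 0.17 (SE; limma, unadjusted p = 0.0207, adjusted p = 0.773), with a 95% interval from 0.557-fold to 0.944-fold of Control. The estimate was −0.33 without Control 2 and −0.28 with the zero-gene share as covariate (limma, unadjusted p = 0.215). It was −0.36 without Control 1, 2 and 12 and −0.47 without LOY 4. The authors' deposited table gives −0.50 with an adjusted p of 0.494. Hsp90aa1, the inducible one, on chromosome 12 from 110690605 to 110702728, ranged from 208 to 382 normalized reads with a median of 312 in LOY libraries, and from 116 to 418 with a median of 362 in Control libraries. The LOY range lay within the Control range. Hsp90aa1 had a log2 fold change of 0.01 ± 0.34 (SE; limma adjusted p = 0.998). Its sign was negative with edgeR (−0.062). The 95% interval of Hsp90aa1 ran from 0.602-fold to 1.68-fold of Control, so differences in either direction remain compatible with these values.

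Hspa8 encodes HSC70, which is made without stress and also strips clathrin from vesicles. It lies on chromosome 9, from 40800984 to 40810087 (plus strand), and hosts small nucleolar RNA genes in its introns. It had a lowest value of 5916, a median of 7576 and a highest of 9528 normalized reads in LOY libraries, against 6072, 9004 and 13993 in Control libraries. The groups overlapped over most of their range, with Control 6 and 17 above every LOY library and LOY 9 below every Control library. Hspa8 had a log2 fold change of −0.26 ± 0.17 (SE; limma adjusted p = 0.826) and −0.38 without Control 1 (adjusted p = 0.836), and it was −0.14 without Control 17. The estimate was −0.47 without Control 1, 2 and 12 (limma adjusted p = 0.929) and −0.47 with the zero-gene share as covariate.

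The stress-inducible HSP70 genes Hspa1a and Hspa1b lie side by side on chromosome 17, at 34969190 to 34972156 and 34956436 to 34959238, both on the minus strand. Their longest open reading frames differ at 8 of 1926 aligned bases, an identity of 99.6%, so reads from 1 gene can match the other and the split between them is uncertain. The 250 bases upstream of each start, shown because they too are near-identical, differ at 3 positions. A heat shock element core is in capitals: GAANNTTC, which reads the same on both strands, occurs in 7.86% of the 32817 windows, and TTCNNGAA, which can overlap it, in 8.51%. Either core occurs in 15.1% of the windows. Dnaja1 has 3 windows, for 3 starts. The first is shown because it also holds GAANNTTC, and the other 2 hold neither core. The stretch shown for Dnaja1 lies within the GENCODE gene position given above, past its first base. No core was found in the windows of Hspa5, Hsp90b1 or Dnajb1, which says only that these letters are not in them.
Hspa1a, chr17:34972157-34972406, minus strand: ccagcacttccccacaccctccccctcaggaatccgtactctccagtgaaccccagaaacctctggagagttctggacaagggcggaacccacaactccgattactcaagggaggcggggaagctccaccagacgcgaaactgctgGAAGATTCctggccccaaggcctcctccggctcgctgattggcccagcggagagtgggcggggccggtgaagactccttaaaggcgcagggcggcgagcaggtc
Hspa1b, chr17:34959239-34959488, minus strand: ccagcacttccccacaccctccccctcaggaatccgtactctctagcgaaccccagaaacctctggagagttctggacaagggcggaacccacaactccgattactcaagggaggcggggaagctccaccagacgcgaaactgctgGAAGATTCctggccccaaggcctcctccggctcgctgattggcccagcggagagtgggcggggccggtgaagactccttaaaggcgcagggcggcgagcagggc
Dnaja1, chr4:40722218-40722467, plus strand: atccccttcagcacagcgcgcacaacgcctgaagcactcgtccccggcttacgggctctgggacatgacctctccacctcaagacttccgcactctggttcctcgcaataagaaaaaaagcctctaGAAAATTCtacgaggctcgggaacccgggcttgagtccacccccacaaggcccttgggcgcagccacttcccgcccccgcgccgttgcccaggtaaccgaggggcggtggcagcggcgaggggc

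The HSP70 pair was low and uneven. Hspa1a had 37.7 to 119 normalized reads with a median of 47.3 in LOY libraries, and 12.9 to 208 with a median of 121 in Control libraries. Control 1 was the lowest library, and 4 of the other Control libraries lay above every LOY library. Its log2 fold change was −0.58 ± 0.69 with all libraries (SE; limma adjusted p = 0.877) and −1.13 without Control 1 (adjusted p = 0.836), and it was −0.35 without Control 17. It was −1.23 without Control 1, 2 and 12 and −1.13 with the zero-gene share as covariate. The exons of Hspa1a overlap those of Gm20481 on the other strand, which the kit does not mark, so reads from the shared stretches are uncertain. Hspa1b had 87.8 to 360 normalized reads with a median of 168 in LOY libraries, and 2.56 to 275 with a median of 227 in Control libraries. The groups overlapped, and Control 2 stood alone near 0, with 2 reads. The log2 fold change of Hspa1b was 0.57 ± 0.99 (SE; limma adjusted p = 0.92), −0.011 with edgeR and −0.42 without Control 2, so its direction rests on that library. In Control 1 the pair had 12 reads of Hspa1a and 229 of Hspa1b, whereas in Control 2 it had 95 and 2. Hspa1a made up 17.3% to 49.6% of the reads of the pair in LOY libraries and 4.98% to 97.9% in Control libraries. Their sum was 251 ± 126 normalized reads in LOY and 304 ± 130 in Control libraries (SD, n = 6 each), a difference smaller than the spread in either group. The coefficient of variation of Hspa1a was 55.6% in LOY and 53.7% in Control libraries, where counting alone would give 10.0%.

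**Figure D3:**
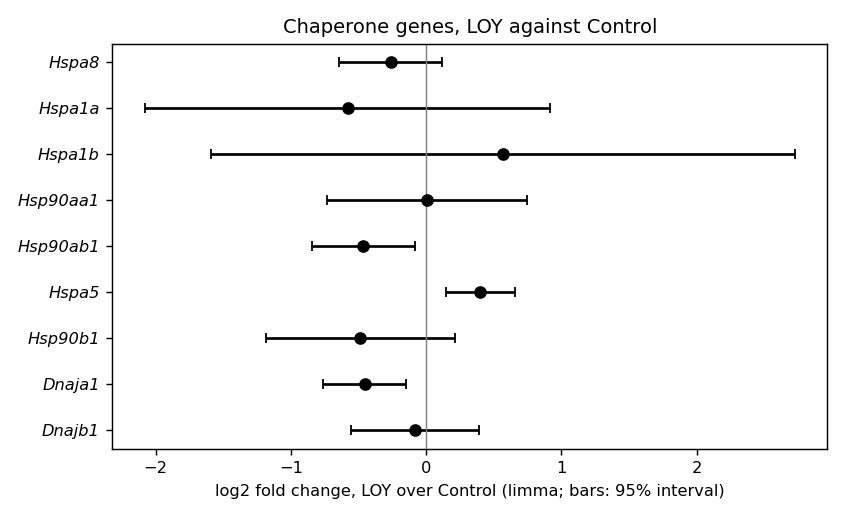
Log2 fold change of LOY over Control (x axis) for the 9 chaperone genes, with the limma estimate as a point and its 95% interval as a bar. The intervals of Hspa5, Dnaja1 and Hsp90ab1 exclude 0 before adjustment, and those of Hspa1a and Hspa1b are the widest.

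Relations between the other pairs of members did not pass. Across 12 libraries r was −0.10 for Hspa1a and Hspa1b (permutation p = 0.792), −0.16 for Dnajb1 and Hspa1b (permutation p = 0.471), 0.34 for Hspa8 and Hsp90ab1 (permutation p = 0.269) and 0.24 for Hspa5 and Hspa1b (permutation p = 0.418). Their rho was 0.20, 0.07, 0.50 and −0.18 in that order, with a permutation adjusted p from 0.244 to 0.835. Within LOY libraries their r was 0.41, 0.46, 0.49 and −0.55, and within Control libraries −0.14, −0.20, 0.01 and 0.28. With the libraries farthest from the median left out, 2 for each pair, r was −0.02, −0.06, 0.27 and −0.43.

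Ratios within a library do not depend on how libraries are scaled. Of the 36 ratios between 2 members, 3 did not overlap between groups, and Hspa5 was part of each; they were picked out after their values were seen and were not tested. Among 7216 tested genes above 0 in every library, 0.226% of all ratios between 2 genes, and 1.9% of the ratios of Hspa5 to another gene, did not overlap. Per kb of exon, Hspa8 stood at 1.71 to 2.69 times Hspa5 in LOY libraries and at 2.80 to 5.40 times in Control libraries. Hsp90ab1 stood at 0.471 to 0.611 times Hspa5 in LOY and 0.649 to 1.78 times in Control libraries. Hspa5 stood at 2.45 to 3.29 times Dnaja1 in LOY and 1.21 to 2.25 times in Control libraries. The 9 members together took 0.11% to 0.147% of normalized reads in LOY and 0.107% to 0.182% in Control libraries.

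In 9 lists of the wider chaperone network 91 genes were tested with limma, of which 0 passed in either direction, beside 0.0205% of all genes. At an unadjusted p under 0.05, 3 were higher and 1 lower in LOY, beside 4.4% higher and 1.63% lower over all genes. With edgeR 1 J-domain gene was higher and 1 lower at that p, and the other lists held 0, beside 2.94% of all genes. DESeq2 called 1 gene of the lists, Clpb, beside 0.484% of all genes with that tool. The median log2 fold change over these genes was 0.17, against 0.14 over all genes tested. Among 14 J-domain genes, Dnajc14 stood at 2322 ± 294 normalized reads in LOY and 1595 ± 363 in Control libraries (log2 fold change 0.57 ± 0.18 SE). Dnajc5, which encodes the vesicle protein CSP, stood at 3301 ± 378 in LOY and 4460 ± 1288 in Control libraries (−0.39 ± 0.17), and Dnajc7, an HSP70 and HSP90 adaptor gene, at −0.34 ± 0.18. Of 23 tested genes of ER folding and the unfolded protein response, 15 had a positive and 8 a negative estimate with limma, beside 60.9% and 39.1% over all genes. With edgeR 12 were positive and 11 negative, beside 4766 and 4976 over all genes. The lectin chaperone gene Calr stood at 915 ± 167 in LOY and 686 ± 203 in Control libraries (0.47 ± 0.26), the disulfide isomerase gene P4hb at 1775 ± 389 and 1307 ± 480 (0.52 ± 0.28), and the BiP partner gene Dnajc3 at 270.5 ± 151 and 625.2 ± 373 (−1.04 ± 0.65).

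Partners of HSP90 and the heat shock factors were also tested, and for several genes with libraries at 0 the limma estimate exceeded the log2 ratio of the means. Chordc1, an HSP90 co-chaperone gene, stood at 128 ± 82.4 normalized reads in LOY and 83.7 ± 126 in Control libraries, with a log2 fold change of 3.06 ± 1.49 with limma and 0.63 with edgeR; 2 Control libraries were at 0. Among the same 18 genes, Pih1d1 was at −0.60 ± 0.35 with limma and −0.72 with edgeR, and Sugt1 at 1.39 ± 0.96 and 0.49. Hsf1, which drives the heat shock response, stood at 340 ± 168 normalized reads in LOY and 281 ± 203 in Control libraries (0.90 ± 0.86 with limma, 0.28 with edgeR). Hsf2 stood at 15.1 ± 8.45 in LOY and 6.11 ± 9.68 in Control libraries, of which 4 were at 0 (2.34 ± 1.02 with limma, 1.30 with edgeR). Hsbp1, which encodes an HSF1-binding protein, stood at 2430 ± 438 in LOY and 2413 ± 354 in Control libraries (0.00 ± 0.14 with limma).

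Of 8 mitochondrial chaperone genes, Trap1 stood at 98.2 ± 79.8 normalized reads in LOY and 25.6 ± 48.8 in Control libraries (3.09 ± 1.31 with limma, 1.96 with edgeR). Clpx was at −0.65 ± 0.31 with limma and −0.61 with edgeR, and Dnaja3, at 64.7 ± 50.6 in LOY and 46.6 ± 102 in Control libraries, at 2.79 ± 1.63 and 0.48. The disaggregase gene Clpb, below the limma filter and named after its values were seen, was called by DESeq2 (adjusted p = 0.0111). It was at 0 in all 6 Control libraries and in LOY 4 and 15, and at 83.3 to 157 normalized reads in the other 4 LOY libraries. Of 14 genes of the chaperonin TRiC and prefoldin, Pfdn5 was at −0.21 ± 0.13 and Cct5 at 0.39 ± 0.29 with limma. Cct6a, at 312 ± 143 in LOY and 312 ± 423 in Control libraries, was at 1.5 ± 1.11 with limma and 0.0043 with edgeR.

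The 5 other HSP70 and HSP110 genes had a median log2 fold change of 0.87 with limma, but −0.36 with edgeR and −0.38 with DESeq2. Hspa2 stood at 105 ± 73.5 normalized reads in LOY and 101 ± 123 in Control libraries, Hspa4 at 381 ± 349 in LOY and 276 ± 280.1 in Control libraries, and Hspa14 at 597 ± 160 in LOY and 775 ± 335 in Control libraries. Their log2 fold changes were 1.68 ± 1.49, 0.87 ± 0.84 and −0.30 ± 0.31 with limma, and 0.077, 0.49 and −0.36 with edgeR. Of 4 nucleotide exchange factor genes, Bag4 stood at 69.8 ± 77.6 in LOY and 66.3 ± 83.1 in Control libraries (1.61 ± 1.53 with limma, 0.081 with edgeR), Bag1 was at 0.97 ± 0.97 and 0.43, and Bag5 at 1.33 ± 1.80 and 0.54. Both small heat shock protein genes tested had libraries at 0 in each group: Hspb6 was at 2.21 ± 1.54 with limma and 1.13 with edgeR, and Hspb11 at −1.19 ± 1.39 and −1.03. Errors on these log2 fold changes are SE, and those on normalized reads are SD.

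Genes of like pattern were named by correlation over the 12 libraries after group means were removed, from 6781 tested genes with a mean of 100 or more. Closest to the mean profile of Hspa1a, Hspa1b and Dnajb1 were Gm11698 (r = 0.957), Vps53, a vesicle tethering gene (0.941), Golm1, a Golgi membrane protein gene (0.939), Sae1, which encodes a SUMO-activating enzyme subunit (0.939), and the glutathione synthetase gene Gss (0.937). The 3 genes themselves had r of 0.835, 0.393 and 0.791 with their own mean, so Hspa1b followed it least. Closest to the mean of Hspa5 and Hsp90b1 were Smn1 (0.843), the tetraspanin gene Cd81 (0.833), Anapc16 (0.823), Plekhg6 (0.806) and Gm15832 (0.793). After group means were removed, Hspa5 and Hsp90b1 had an r of −0.84, so they largely cancel in this mean, which follows neither gene. Each had an r of 0.284 with it, a value set by their own correlation. The 5 genes named for this pair therefore say nothing about the pattern of Hspa5 or of Hsp90b1. Libraries share depth and the number of genes at 0, so these are descriptions.

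**Figure D4:**
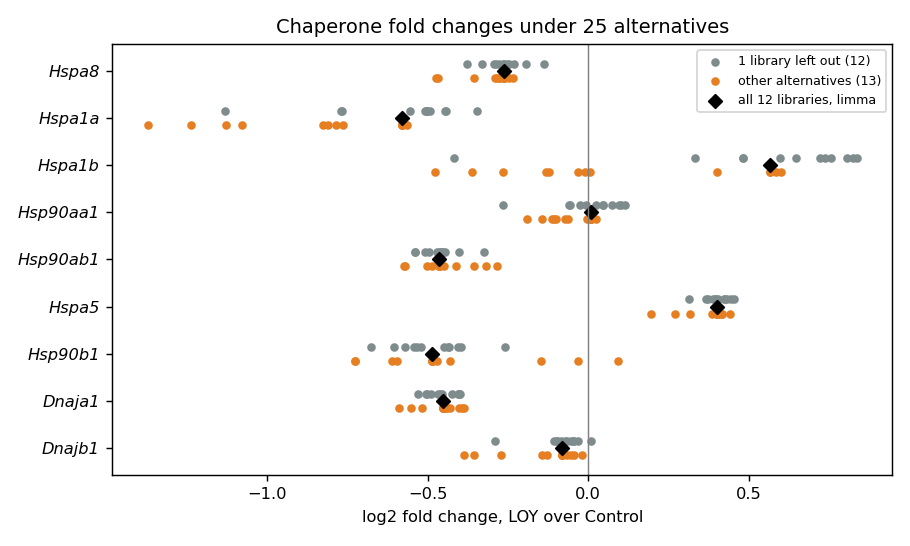
Log2 fold change of LOY over Control (x axis) of each chaperone gene with all libraries and under 25 alternatives, grey for 1 library left out and orange for other choices. Hspa5 stays above 0 and Dnaja1, Hsp90ab1, Hspa8 and Hspa1a below 0 under all 25, while the other 4 genes have points on both sides of 0.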

How the data were processed

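RNA of sorted blood neutrophils was amplified with SMART-Seq v4 and made into Nextera XT libraries, per the labels' protocols; neither marks strand. Listed in the submitters' processing notes are STAR 2.5.2b, Subread 1.5.2 with featureCounts, Trimmomatic 0.36 and bcl2fastq 2.17, and the builds GRCm38 and mm10. The sources used here do not state how reads matching several genes were counted. The authors deposited a normalized signal per gene and library. Its values above 0 were whole multiples of 1 step per library, in 100% of cases within 0.02 reads, so it is a read count over a size factor. For Control 6 the step lies close to 1, so the count tools were also run without it. The authors' log2 fold changes and p-values were deposited in the same table, per the file headers. Genes with a mean under 8.63 are not listed.

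The main test was limma 3.58.1 (R 4.3.3; trended, robust) on log2(value + 1), for genes at 10 or more in at least 6 libraries, with no covariate, adjusted by Benjamini-Hochberg over 9742 genes. On the log2(value + 1) scale the pseudocount shrinks the folds of low genes, whereas libraries at or near 0 can give folds larger than the ratio of the means. Alternatives were edgeR 4.0.16 and DESeq2 1.42.0 on recovered reads, other normalizations, filters and pseudocounts, library weights and libraries left out. Chosen after seeing the data were the count tools without Control 6. Exon lengths and positions came from GENCODE vM21 (GRCm38, basic set), and promoters from RefSeq, which matched 7 of the 10 members. Pairs of members were compared by permutation with 100000 resamples, exact under 10 libraries; of 6 pairs planned, 5 could be computed. The scripts were checked on simulated counts. Members and lists were chosen with earlier results of these data known. Named are all members, the 3 genes of smallest p in each list and the 5 of most like pattern.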

Additional observations from a re-analysis of the deposited data

Results flagged for a closer look

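Of 18 sets of 6 values (9 members in 2 groups), 2 held a library whose gap to its nearest neighbour was above Dixon's 95% critical value, and chance gives about 1 in 20. Dnajb1 was at 669.9 normalized reads in Control 1, below the next Control library at 1455. Hsp90ab1 was at 4285 normalized reads in Control 2, above the next Control library at 2825. Both libraries are among the 3 with more genes at 0.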

How the results depend on the processing

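The sign of Hspa5, Dnaja1, Hsp90ab1, Hspa8 and Hspa1a held under all 25 alternatives, and no member passed the adjusted threshold under any. The log2 fold change ran from 0.20 to 0.45 for Hspa5, −0.59 to −0.39 for Dnaja1 and −0.57 to −0.28 for Hsp90ab1. With each library's zero-gene share as covariate, Hspa5 was at 0.20 (unadjusted p = 0.145 with limma) and Hsp90ab1 at −0.28 (0.215). Hsp90b1 turned to 0.092 there. Hsp90aa1 turned to −0.0047 (quantile normalization), −0.062 (edgeR), −0.073 (DESeq2), −0.11 (library weights), −0.19 (covariate), −0.14 (without Control 1, 2 and 12), and −0.10 and −0.11 (edgeR and DESeq2 without Control 6). Hspa1b turned to −0.011, −0.031, −0.27, −0.48, −0.36, −0.12 and −0.13 under edgeR, DESeq2, weights, the covariate, without Control 1, 2 and 12, and edgeR and DESeq2 without Control 6. With 1 library left out Hsp90aa1 ran from −0.27 to 0.12, Hspa1b ran from −0.42 to 0.84 and Dnajb1 from −0.29 to 0.0084.

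The count of members at an unadjusted p under 0.05 was 3 with all libraries, 6 without Control 1 (adding Hspa8, Hspa1a and Dnajb1, all lower), 5 without Control 1, 2 and 12, 2 with the covariate (Dnaja1 and Hspa8, both lower), and 3 to 6 with 1 library left out. Among all 9742 genes tested that count was 588 with all libraries, 569 without Control 1 and 494 without Control 1, 2 and 12. It was 285 with the covariate and 467 to 783 with 1 library left out. Over all genes 0 passed with quantile normalization, edgeR (with or without Control 6), a mean of 50 or more, the covariate or without Control 1, 2 and 12, against 1 with weights, 54 with DESeq2 and 120 with DESeq2 without Control 6, and 0 to 17 with 1 library left out (17 without Control 6, 7 without Control 18, 5 without Control 12). In the mitochondrial list DESeq2 called 1 of 9 genes, with or without Control 6. Over all genes it called 54 of 11148 with Control 6 and 120 of 11075 without it. Without Control 1, 2 and 12 the correlation was 0.62 for Hspa8 and Hsp90ab1 (exact permutation p = 0.0763, adjusted p = 0.347). In that setting it was 0.52 for Hspa1a and Hspa1b and 0.23 for Dnajb1 and Hspa1b. For Hspa5 and Hsp90b1 it was −0.41 there, and for Hspa5 and Hspa1b −0.42. Without the 2 libraries farthest from the median it was −0.43 for each of these last pairs. The cause of these shifts was not tested. No paired analysis was possible because the replicate numbers do not recur between groups. Low reads limit Hspa1a and Hspa1b, with 12 and 2 reads in their lowest libraries.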
